A study of Mus musculus with 6 samples.

Results

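The genes described are 59 chromatin remodelers and histone modifiers of the mouse, comprising writers and erasers of histone methylation and acetylation, ATP-driven nucleosome remodelers, and enzymes that write or oxidise DNA methylation. They were listed by name, but with earlier results of these data known, so the list may not be independent of the measured values. All 59 symbols matched 1 of the 55487 gene IDs in the expression tables. Their RNA was measured by polyA RNA sequencing in naive CD4+ T cells taken from mesenteric lymph nodes (mLN, the nodes that drain the intestine; 3 libraries) and in the same cell type taken from the spleen (3 libraries). All mice were untreated wild-type C57BL6/J animals, their age is not given in the labels, and the labels state neither how the naive cells were sorted nor whether each library is a different mouse, so the spread behind every p-value may be technical. The libraries held 16139769, 13205499 and 20054205 estimated counts in mLN and 14224966, 17862485 and 16218912 in spleen, and the least abundant of the 59 genes in a library still had 421 to 626 counts.

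DNA in the nucleus is wound around histones, and enzymes of this group attach or remove methyl and acetyl groups on histone tails, slide or exchange nucleosomes with the energy of ATP, or methylate the DNA itself. Trithorax-type H3K4 methyltransferases and acetyltransferases accompany active promoters and enhancers, whereas Polycomb repressive complex 2 and DNA methyltransferases are known for keeping genes off. In naive CD4+ T cells these enzymes hold lineage genes silent or poised until the cell meets antigen.

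Of the 59 genes, 48 were higher in mLN cells and 0 were lower, with 11 not called (edgeR quasi-likelihood test, Benjamini-Hochberg adjusted p under 0.05). Over all 12486 genes tested, 16.1% were called higher in mLN and 13.5% lower. The one gene of the 59 that was lower at an unadjusted p under 0.05 was Ezh1, and DESeq2 likewise called 48 higher and 0 lower. The median log2 fold change, mLN minus spleen, was 0.42 over the 59 genes, with a range of -0.18 to 0.68, against -0.01 over all genes tested. The differences were of modest size: 9 genes differed by at least 1.5-fold, and Kat6a, with the largest difference in this fit, by 1.61-fold. The CPM values (counts scaled to a common library size) of the 3 mLN and the 3 spleen libraries did not overlap for 49 of the 59 genes. These were the 48 called genes, which were chosen from the same values, and Ezh1, which was lower in mLN. Over all genes, 21.5% had higher mLN values without overlap and 20.3% lower ones. With only genes of at least 5 CPM in at least 3 libraries kept, 1972 of 9442 were called higher and 1762 lower. In that fit 49 of the 59 genes were higher and 0 lower. Shares of calls among genes of matched abundance were not compared. Together the 59 genes took 1.68%, 1.69% and 1.69% of all counts in mLN libraries, against 1.21%, 1.21% and 1.25% in spleen libraries. Replicate 3 of each tissue stood somewhat apart by base composition (described with GC content): without mLN replicate 3, 50 of the 59 genes were higher and 0 lower, and without spleen replicate 3, 47 were higher and 1, Ezh1, lower.

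**Figure D1:**
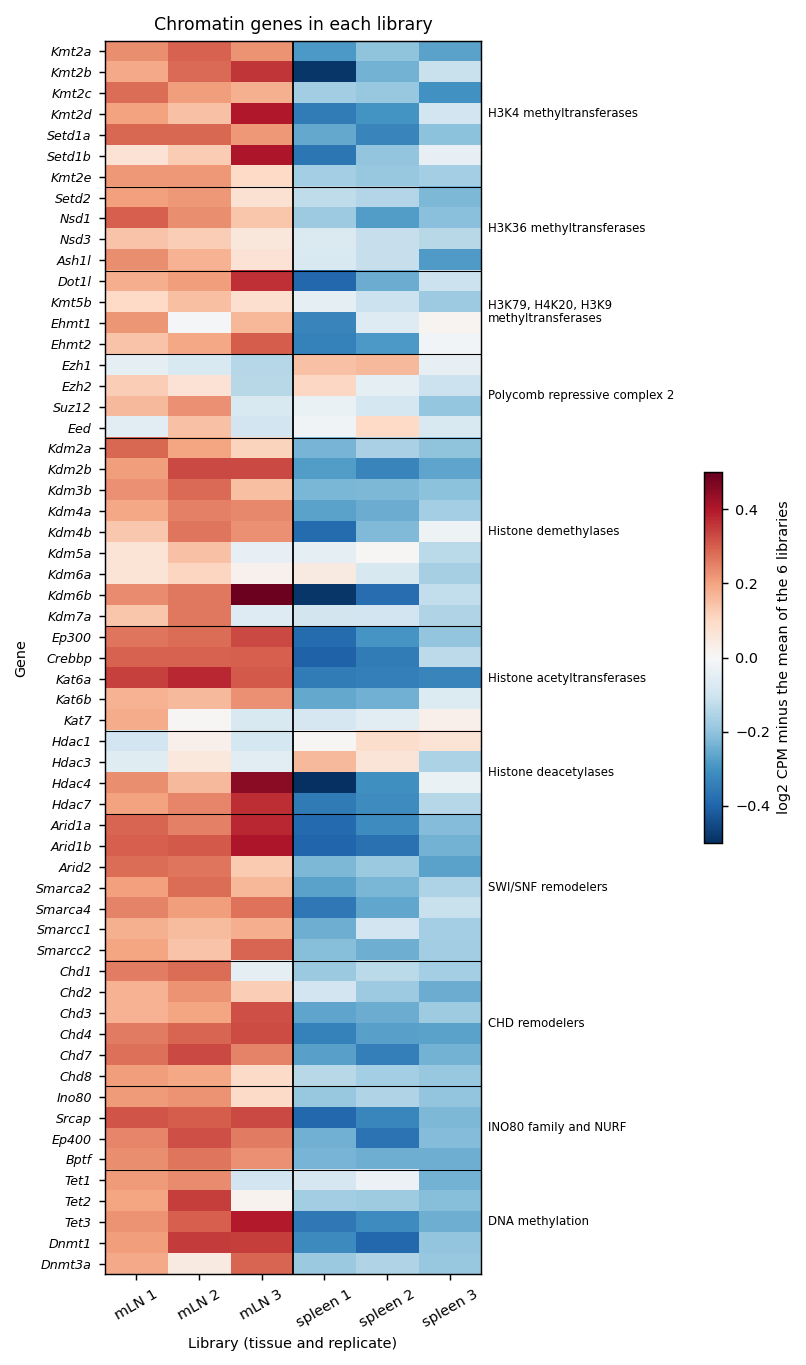
Level of each of the 59 chromatin genes (rows, by enzyme class) in each library (columns, the 3 mLN libraries left and the 3 spleen libraries right), as log2 CPM minus that gene's mean over the 6 libraries. Rows are mostly red in mLN and blue in spleen; the Polycomb rows and Hdac1, Hdac3 and Kat7 show no such split.

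The genes of this group have long transcripts, and the length of a transcript moved with the difference between tissues. The median length was 5421 nt for the 59 genes and 2330 nt for all genes tested. The fitted trend over all genes was a log2 fold change of -0.23 at 1000 nt, 0.08 at 4000 nt and 0.25 at 8000 nt. Most comparisons are therefore also given after removing the length trend of each library. In that fit 35 of the 59 genes were higher in mLN and 1, Ezh1, was lower, against 14.4% of all genes higher and 9.19% lower, and the median log2 fold change was 0.22, against 0.02 over all genes. The 35 genes were all among the 48. The 13 genes whose call was lost were Kmt2d, Setd1b, Kmt2e, Nsd3, Ash1l, Kmt5b, Kdm7a, Kat6b, Chd1, Chd2, Ino80, Tet2 and Dnmt3a.

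RefSeq promoter windows (GRCm38.p6) are shown for Srcap and Arid1a, higher in mLN, and for Eed and Ezh1, which had negative log2 fold changes. Hdac1 and Hdac3 also had negative log2 fold changes, lower than that of Eed, and are not shown. The windows shown all end at or within a few bases of the annotated gene start. Each is the 150 bases before the start, 5′ to 3′ on the gene's strand, and capitals mark CCGCCC, the reverse complement of the GC box GGGCGG to which Sp1 family factors bind.
Srcap (chr7:127511833-127511982, plus strand): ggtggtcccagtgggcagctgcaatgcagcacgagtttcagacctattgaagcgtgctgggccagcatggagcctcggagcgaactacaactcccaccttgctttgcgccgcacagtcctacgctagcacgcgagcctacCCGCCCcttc
Arid1a (chr4:133756770-133756919, minus strand): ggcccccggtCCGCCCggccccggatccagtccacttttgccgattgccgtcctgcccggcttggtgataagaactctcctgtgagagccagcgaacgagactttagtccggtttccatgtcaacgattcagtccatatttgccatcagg
Eed (chr7:89980977-89981126, minus strand): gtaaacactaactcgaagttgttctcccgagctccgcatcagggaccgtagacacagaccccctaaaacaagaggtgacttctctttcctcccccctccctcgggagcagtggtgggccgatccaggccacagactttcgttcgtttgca
Ezh1 (chr11:101226464-101226613, minus strand): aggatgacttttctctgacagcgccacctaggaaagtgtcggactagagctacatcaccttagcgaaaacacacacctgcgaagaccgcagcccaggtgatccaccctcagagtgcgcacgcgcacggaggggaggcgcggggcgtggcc
The printed windows of Srcap and Arid1a each held 1 such match and those of Eed and Ezh1 held none. Arid1a has 2 RefSeq windows, and the other, inside the annotated gene at chr4:133753986-133754135 and not printed, held 5 matches. Of the 59 genes, 40 matched a promoter entry, with 55 windows among them. In the 250 bases before the start, GGGCGG stood on either strand in 42 of the 55 windows (76.4%), against 32.7% of all 32851 windows. The median window held 25 CpG dinucleotides, against 6 in all windows. All windows here include those of genes that were not tested for expression. The windows of expressed genes alone were not compared. Windows of called genes had a median of 26 (47 windows) and those of genes not called 15 (8 windows). The letters CCGGAAG of the ETS family were found in 7.27% of the windows against 6.91% of all, GCGCATG, part of the NRF1 motif, in 5.45% against 3.24%, and AAGATGG, the YY1 core, in 1.82% against 4.49%, each on both strands and with overlaps between motifs allowed. These letter matches are descriptions and not binding sites.

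All 7 genes listed in the H3K4 methyltransferase class were higher in mLN, with a median log2 fold change of 0.50. Kmt2a (MLL1, known for keeping Hox genes active; chr9:44803355-44881296, minus strand) had 756, 789.6 and 751 CPM in mLN cells, against 527, 559 and 534 CPM in spleen cells. The lowest mLN library lay well above the highest spleen library, and the fold change was 1.42-fold, a log2 fold change of 0.50 (SE 0.0548, adjusted p = 6.87e-07). Kmt2c, which together with Kmt2d places H3K4 monomethylation at enhancers, had 676, 644 and 629.8 CPM in mLN cells, against 493, 488 and 451 CPM in spleen cells, a 1.36-fold difference with an adjusted p of 5.57e-06. The mLN libraries were again all above the spleen libraries. Kmt2d itself had 1262, 1212 and 1446 CPM in mLN cells, against 861, 891 and 1025 CPM in spleen cells. Replicate 3 was the highest library in both tissues, and the groups did not overlap (1.41-fold, adjusted p = 3.30e-05). Net of the length trend, Kmt2a differed by 0.21 (adjusted p = 0.00435) on the log2 scale and Kmt2c by 0.17 (adjusted p = 0.0236), and Kmt2d lost its call at 0.21 (adjusted p = 0.144). Kmt2b, Kmt2a's closest relative, was 1.46-fold higher, and Setd1a, the catalytic subunit of a COMPASS complex that trimethylates H3K4 at promoters, 1.44-fold. Both stayed called without the length trend, at 0.36 and 0.36. Setd1b, the other COMPASS methyltransferase, was 1.32-fold higher and Kmt2e, a SET domain protein of the same family, 1.28-fold. Neither kept its call without the length trend, at 0.17 (adjusted p = 0.268) and 0.14 (adjusted p = 0.0692).

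The 4 H3K36 methyltransferases were all higher in mLN, by a median log2 fold change of 0.33. Setd2, the enzyme of H3K36 trimethylation over transcribed genes, had 249, 251 and 227 CPM in mLN cells, against 198, 195 and 184 CPM in spleen cells. Nsd1, a dimethylase of the same residue, had 472, 451 and 422 CPM in mLN cells, against 338, 316 and 332 CPM in spleen cells. Neither gene had overlapping groups, and the fold changes were 1.26-fold with an adjusted p of 4.87e-04 and 1.36-fold with an adjusted p of 8.09e-06. Both stayed called without the length trend, at 0.22 (adjusted p = 0.0137) and 0.19 (adjusted p = 0.0136). Nsd3, a relative of Nsd1, was 1.16-fold higher (adjusted p = 0.00512) and Ash1l, a Trithorax protein that methylates H3K36, 1.25-fold (adjusted p = 0.00130). With the length trend removed these differences were 0.07 (adjusted p = 0.363) and 0.03 (adjusted p = 0.779), and neither was called.

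Among the methyltransferases of H3K79, H4K20 and H3K9, 3 of 4 were higher in mLN. Dot1l, the methyltransferase of H3K79, had 126, 128 and 143 CPM in mLN cells, against 84.5, 93.4 and 103 CPM in spleen cells. Ehmt2 (G9a), which dimethylates H3K9, had 141, 146 and 157 CPM in mLN cells, against 101, 105 and 126 CPM in spleen cells. For both genes replicate 3 was the highest library of its tissue and the groups did not overlap, with a log2 fold change of 0.50 (SE 0.0848, adjusted p = 1.14e-04) for Dot1l and a log2 fold change of 0.42 (SE 0.0850, adjusted p = 6.88e-04) for Ehmt2. Removing the length trend left 0.35 (adjusted p = 0.00434) and 0.41 (adjusted p = 8.83e-04). Ehmt1 (GLP), the partner of G9a, had 94.8, 80.8 and 91.3 CPM in mLN cells, against 64.6, 77.7 and 82.1 CPM in spleen cells. Its groups overlapped and it was not called (1.19-fold, adjusted p = 0.0531), although it was called higher when mLN replicate 2 or spleen replicate 3 was left out. Kmt5b, an H4K20 methyltransferase, averaged 209.6 ± 4.94 CPM in mLN cells and 179.6 ± 8.36 CPM in spleen cells (SD, n = 3 each; 1.17-fold, adjusted p = 0.0122). Kmt5b was not called with the length trend removed, at a log2 fold change of 0.18, and it also lost its call when mLN replicate 2, spleen replicate 2 or spleen replicate 3 was left out, where the log2 fold change was at least 0.18 and the adjusted p at most 0.0673.

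Polycomb repressive complex 2, which trimethylates H3K27, was the only class with no called gene in the fit without length or GC terms, 0 of 4 by edgeR and 0 of 4 by DESeq2. Over all genes tested, edgeR called 16.1% higher and 13.5% lower, and 0 of 4 genes cannot be told apart from these shares. At an unadjusted p under 0.05, Suz12 was higher and Ezh1 lower. Ezh1, the catalytic subunit known to prevail in resting cells (chr11:101191115-101226463, minus strand), had 109.6, 108 and 103 CPM in mLN cells, against 126, 127 and 110.3 CPM in spleen cells. The 3 mLN values were all below the 3 spleen values, by a margin smaller than the spread within spleen, with a log2 fold change of -0.18 (SE 0.0786, adjusted p = 0.0895). With the length trend removed Ezh1 was called lower in mLN, at -0.22 (adjusted p = 0.0442), a call that was lost on leaving out any 1 library other than spleen replicate 3. It was also called lower, at a log2 fold change of -0.26, when spleen replicate 3 was left out. In TPM, a unit described below, Ezh1 was not lower in mLN. It averaged 47.1 TPM in mLN and 46.3 TPM in spleen, with overlapping groups. Suz12, a core subunit, had 168, 176 and 142 CPM in mLN cells, against 147, 141 and 131 CPM in spleen cells. mLN replicate 3 lay inside the spleen range, and the adjusted p was 0.0527, or 0.00489 without that library. Ezh2, the catalytic subunit of dividing cells, averaged 34.7 ± 3.29 CPM in mLN cells and 33.9 ± 2.61 CPM in spleen cells and Eed, the subunit that reads H3K27 trimethylation, 73.3 ± 6.89 CPM in mLN cells and 73.4 ± 4.59 CPM in spleen cells (SD, n = 3 each). For both genes the groups overlapped, with adjusted p-values of 0.855 and 0.980. Removing the length trend left neither called, at 0.08 (adjusted p = 0.672) and 0.17 (adjusted p = 0.207). The class depended on base composition: with both length and GC trends removed, Suz12 and Eed were called higher in mLN, each at a log2 fold change of 0.31 (adjusted p = 6.74e-05 and 0.00395), Ezh1 lower at -0.18 (adjusted p = 0.0490), and Ezh2 was not called (adjusted p = 0.111). All 4 transcripts are shorter than the median of the set, at 1295 nt for Eed, 2047 nt for Ezh2, 3443 nt for Ezh1 and 4225 nt for Suz12.

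Of the 9 histone demethylases, 7 were higher in mLN and 6 remained called without the length trend. Kdm6b (JMJD3), which removes H3K27 methylation and is induced in activated macrophages, had 123, 125 and 146 CPM in mLN cells, against 74.1, 79.9 and 95.6 CPM in spleen cells (chr11:69398508-69413675, minus strand). Every mLN library was above every spleen library and replicate 3 was the highest in each tissue, with a 1.58-fold difference, a log2 fold change of 0.66 (SE 0.0952, adjusted p = 2.12e-05). Its X-linked paralog Kdm6a (UTX) had 82.0, 84.2 and 79.3 CPM in mLN cells, against 80.6, 73.8 and 69.5 CPM in spleen cells. Here the groups overlapped and no difference was called (log2 fold change 0.13, adjusted p = 0.266). Kdm3b, which removes H3K9 methylation, had 195, 202 and 185 CPM in mLN cells, against 142, 142 and 144 CPM in spleen cells, without overlap and at an adjusted p of 3.40e-05. Kdm6b and Kdm3b stayed called with the length trend removed, at 0.46 (adjusted p = 0.00176) and 0.25 (adjusted p = 0.00691). Kdm2b, a CpG-binding demethylase that brings a variant Polycomb complex 1 to CpG islands, was 1.50-fold higher, and Kdm2a, its H3K36-demethylating paralog, 1.32-fold. The H3K9 and H3K36 demethylases Kdm4a and Kdm4b were 1.38-fold and 1.33-fold higher. These 4 genes had log2 fold changes of 0.28 to 0.52 without the length trend and stayed called. Kdm5a, an H3K4 demethylase, had 255, 269 and 236 CPM in mLN cells, against 235, 244 and 221 CPM in spleen cells, with overlapping groups (log2 fold change 0.12, adjusted p = 0.197), and -0.05 (adjusted p = 0.591) without the length trend. Kdm7a, which removes H3K9 and H3K27 methylation, had 232, 253 and 201 CPM in mLN cells, against 198, 197 and 190.1 CPM in spleen cells. Its call (log2 fold change 0.23, adjusted p = 0.0229) was not stable with fewer libraries, since leaving out mLN replicate 1 or 2 or any 1 of the 3 spleen replicates ended it. The log2 fold change ran from 0.15 to 0.31 over the 6 such fits, and removing the length trend turned it to -0.04 (adjusted p = 0.708).

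**Figure D2:**
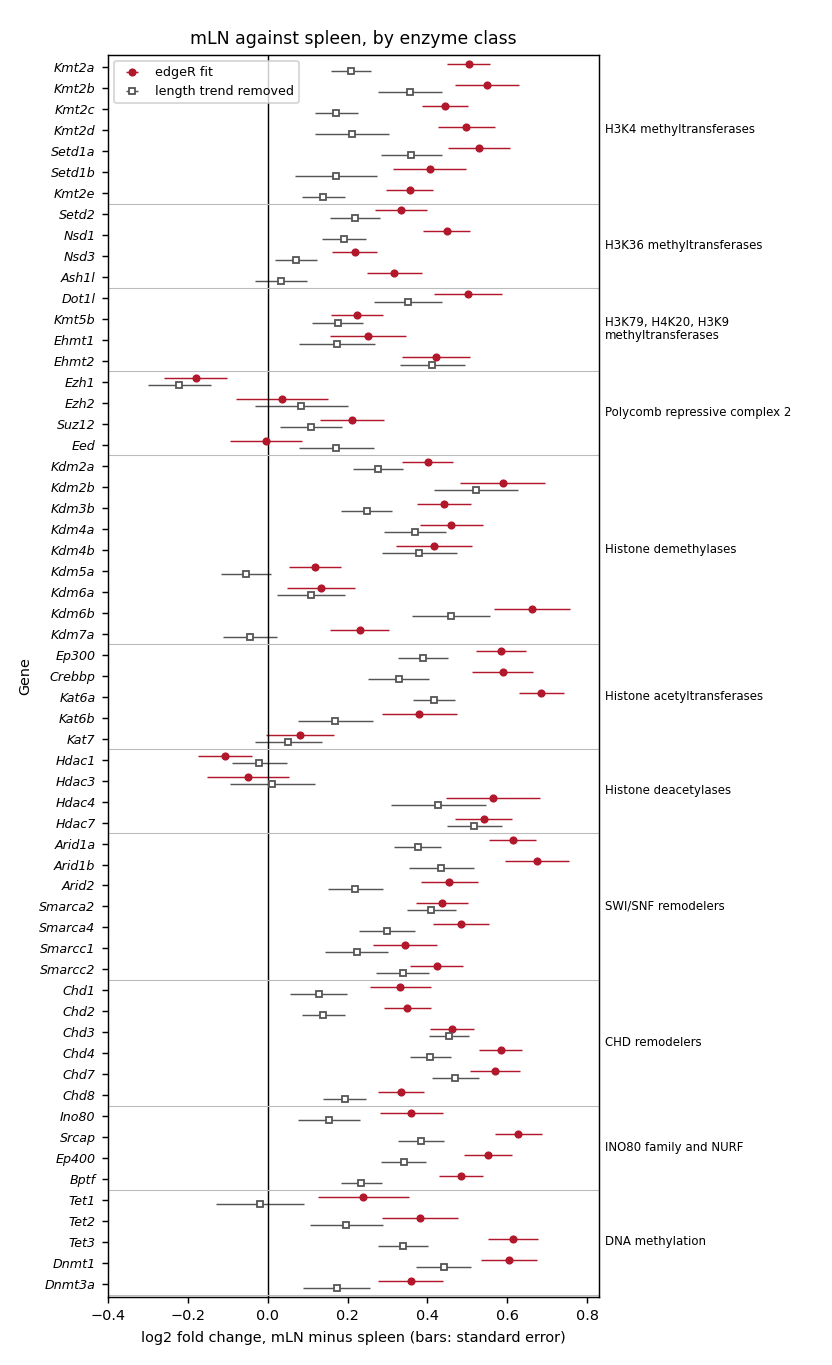
Log2 fold change, mLN minus spleen, of the 59 genes by enzyme class (points, with bars of 1 standard error) in the edgeR fit (filled) and with the length trend removed (open). Most filled points lie between 0.2 and 0.7, and the open points lie nearer 0 for most genes, with large shifts for long transcripts such as Kmt2a, Ash1l and Kdm7a.

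Of the 5 histone acetyltransferases, 4 were higher in mLN, with a median log2 fold change of 0.58, the highest of any class before the length trend was removed, and 0.33 with the length trend removed, where the SWI/SNF median was 0.34. Kat6a (MOZ), an acetyltransferase of H3 needed for blood stem cells, had 418, 428 and 408 CPM in mLN cells, against 258, 259 and 262 CPM in spleen cells (chr8:22859535-22943259, plus strand). The 2 groups of libraries were far apart relative to their spread of 9.92 CPM in mLN and 1.65 CPM in spleen (SD, n = 3 each). The difference was 1.61-fold, a log2 fold change of 0.68 (SE 0.0564, adjusted p = 1.99e-08), the largest of the 59 genes before the length trend was removed. Without the length trend it was 0.42 (adjusted p = 1.04e-05), below Kdm2b at 0.52, Hdac7 at 0.52, Chd7 at 0.47 and others. Ep300 (p300), an acetyltransferase of active enhancers, had 308, 310.2 and 322 CPM in mLN cells, against 196, 208 and 223 CPM in spleen cells. Its paralog Crebbp (CBP) had 175, 174 and 175 CPM in mLN cells, against 107, 111 and 129.8 CPM in spleen cells. The mLN values of Crebbp had an SD of 0.308 CPM, and both genes were 1.50-fold higher without overlap, at adjusted p-values of 6.65e-07 for Ep300 and 6.10e-06 for Crebbp. They stayed called without the length trend, at 0.39 and 0.33. Kat6b (MORF), the paralog of Kat6a, averaged 58.7 ± 1.44 CPM in mLN cells and 45.1 ± 3.34 CPM in spleen cells (SD, n = 3 each; 1.30-fold, adjusted p = 0.00378), and was not called without the length trend, at 0.17 (adjusted p = 0.215). Kat7 (HBO1) had 109.9, 97.1 and 91.6 CPM in mLN cells, against 91.1, 92.8 and 98.3 CPM in spleen cells, with overlapping groups and an adjusted p of 0.523.

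The 4 histone deacetylases split by class. Hdac4 and Hdac7, class IIa enzymes that move between cytoplasm and nucleus, were higher in mLN, and Hdac1 and Hdac3, class I enzymes of the nuclear corepressor complexes, were not called. Hdac7, which is abundant in thymocytes, had 234, 240.4 and 262 CPM in mLN cells, against 159, 163 and 184 CPM in spleen cells. Hdac4 had 54.3, 51.6 and 63.2 CPM in mLN cells, against 32.2, 37.2 and 45.1 CPM in spleen cells. The groups of both genes did not overlap, although for Hdac4 the highest spleen library was nearer to the lowest mLN library than to the lowest spleen library. The differences were 1.46-fold for Hdac7 (adjusted p = 7.00e-06) and 1.48-fold for Hdac4 (adjusted p = 9.88e-04), and both were called without the length trend, at 0.52 (adjusted p = 1.74e-05) and 0.43 (adjusted p = 0.0119). Hdac1 had 149, 163 and 150.3 CPM in mLN cells, against 161, 169.8 and 167 CPM in spleen cells, and Hdac3, the enzyme of the NCoR complexes, had 45.4, 49.2 and 45.6 CPM in mLN cells, against 53.1, 49.5 and 42.4 CPM in spleen cells. Their groups overlapped, with log2 fold changes of -0.11 (adjusted p = 0.262) and -0.05 (adjusted p = 0.764). The class IIa transcripts were also the longer ones, at 3052 nt for Hdac7 and 4719 nt for Hdac4, against 1755 nt for Hdac1 and 1931 nt for Hdac3.

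All 7 SWI/SNF (BAF) remodeler subunits were higher in mLN, and all 7 stayed called with the length trend removed. Arid1a, the DNA-binding subunit of the canonical BAF complex, had 742, 721 and 787 CPM in mLN cells, against 463, 488 and 521 CPM in spleen cells (chr4:133679008-133756769, minus strand). Arid1b, its mutually exclusive paralog, had 118, 119 and 127 CPM in mLN cells, against 72.8, 73.9 and 81.4 CPM in spleen cells. Neither gene's groups overlapped, and the fold changes were 1.53-fold (log2 fold change 0.61, SE 0.0594, adjusted p = 1.47e-07) and 1.60-fold (log2 fold change 0.67, SE 0.0805, adjusted p = 2.15e-06). Without the length trend they were 0.38 (adjusted p = 1.06e-04) and 0.43 (adjusted p = 5.61e-04) on the log2 scale. Both alternative ATPases rose, Smarca4 (BRG1) to 229 ± 5.02 CPM in mLN, against 163 ± 14.1 CPM in spleen, and Smarca2 (BRM) to 244 ± 9.82 CPM in mLN, against 180.1 ± 7.35 CPM in spleen (SD, n = 3 each). Their fold changes were 1.40-fold and 1.35-fold, and their log2 fold changes without the length trend 0.30 (adjusted p = 0.00325) and 0.41 (adjusted p = 6.44e-05). The scaffold subunits Smarcc1 and Smarcc2 were 1.27-fold and 1.34-fold higher, and Arid2, of the PBAF form, 1.37-fold. The smallest difference of the class without the length trend was 0.22 (adjusted p = 0.0238), for Arid2.

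The 6 CHD remodelers were all higher in mLN, and 4 kept the call without the length trend. Chd4, the main ATPase of the NuRD complex, which joins remodeling to deacetylation, had 822, 840.3 and 862 CPM in mLN cells, against 544, 569.9 and 571 CPM in spleen cells (chr6:125095981-125130591, plus strand). Its paralog Chd3 had 1431, 1455 and 1585 CPM in mLN cells, against 1057, 1068 and 1121 CPM in spleen cells. The libraries of each tissue stood close together for both genes and the groups did not overlap, with fold changes of 1.50-fold (log2 fold change 0.58, SE 0.0540, adjusted p = 8.70e-08) and 1.38-fold (log2 fold change 0.46, SE 0.0556, adjusted p = 2.35e-06). Removing the length trend moved Chd4 to 0.41 (adjusted p = 9.02e-06) and Chd3, whose transcripts averaged 2689 nt, to 0.45 (adjusted p = 2.20e-06). Chd7, an enhancer-associated remodeler, had 283, 294 and 278 CPM in mLN cells, against 193, 184 and 198 CPM in spleen cells, a 1.48-fold difference with no overlap (adjusted p = 6.94e-07), and 0.47 (adjusted p = 1.03e-05) on the log2 scale without the length trend. Chd8, which binds active promoters, was 1.26-fold higher, and stayed called without the length trend at 0.19 (adjusted p = 0.0122). Chd1, a remodeler that reads H3K4 trimethylation, was 1.26-fold higher and Chd2 1.27-fold. Neither was called without the length trend, at 0.13 (adjusted p = 0.213) and 0.14 (adjusted p = 0.0692). Chd2 also shares 2628 exonic bases on the same strand with 1810026B05Rik, a gene that was lower in mLN (log2 fold change -0.27, adjusted p = 0.00534). With the reads of both genes added together, in a fit added after seeing the data, the log2 fold change was 0.18 (adjusted p = 0.0141) in place of 0.35.

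The INO80 family ATPases Ino80, Srcap and Ep400 and the NURF subunit Bptf were all higher in mLN. Srcap, which deposits the histone variant H2A.Z, had 441, 438 and 446 CPM in mLN cells, against 270.4, 283 and 304 CPM in spleen cells (chr7:127511983-127561219, plus strand). Ep400, the ATPase of the TIP60 complex, had 376, 396 and 379 CPM in mLN cells, against 268, 245 and 272 CPM in spleen cells. The groups lay apart for both, at 1.55-fold (log2 fold change 0.63, SE 0.0594, adjusted p = 1.11e-07) and 1.47-fold (log2 fold change 0.55, SE 0.0603, adjusted p = 7.26e-07), and the differences without the length trend were 0.38 (adjusted p = 6.26e-05) and 0.34 (adjusted p = 1.80e-04). Bptf, the reader subunit of NURF that binds H3K4 trimethylation, averaged 457 ± 6.74 CPM in mLN cells and 327 ± 1.62 CPM in spleen cells (SD, n = 3 each), and stayed called without the length trend at 0.23 (adjusted p = 0.00215). Ino80 was 1.28-fold higher and lost its call, at 0.15 (adjusted p = 0.164). Srcap shares 9738 exonic bases on the same strand with Gm42715, and the 2 genes added together differed by a log2 fold change of 0.59 (adjusted p = 1.48e-07).

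Of the 5 genes of DNA methylation, 4 were higher in mLN and Dnmt1 and Tet3 stayed called without the length trend. Dnmt1, the maintenance methyltransferase that copies methylation after replication, had 237, 262 and 261 CPM in mLN cells, against 164, 156 and 179 CPM in spleen cells (chr9:20907209-20959888, minus strand). Tet3, a dioxygenase that oxidises methylcytosine, had 361, 379.9 and 406 CPM in mLN cells, against 241, 248 and 261 CPM in spleen cells. For both the mLN libraries were all above the spleen libraries, with fold changes of 1.52-fold (log2 fold change 0.60, SE 0.0693, adjusted p = 1.24e-06) and 1.53-fold (log2 fold change 0.61, SE 0.0618, adjusted p = 2.47e-07). The values without the length trend were 0.44 (adjusted p = 7.76e-05) and 0.34 (adjusted p = 4.89e-04). Dnmt3a, the de novo methyltransferase of T cells, had 109, 98.3 and 117 CPM in mLN cells, against 83.6, 85.8 and 83.5 CPM in spleen cells, and Tet2 had 65.6, 72.7 and 57.9 CPM in mLN cells, against 50.6, 50.5 and 49.3 CPM in spleen cells. Both were higher without overlap, by 1.28-fold and 1.30-fold, and neither was called without the length trend, at 0.17 (adjusted p = 0.156) and 0.20 (adjusted p = 0.133). Tet1 had 45.3, 46.1 and 36.5 CPM in mLN cells, against 36.8, 38.2 and 33.1 CPM in spleen cells. mLN replicate 3 lay inside the spleen range and Tet1 was not called (log2 fold change 0.24, adjusted p = 0.127), except when that library was left out (adjusted p = 0.0366). Without the length trend its log2 fold change was -0.02 (adjusted p = 0.932).

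Grouped by length, the share of genes higher in mLN grew both in this set and in the genome. Up to 2000 nt, 0 of 3 of the 59 genes were higher (also 0 at an unadjusted p under 0.05 and 0 by DESeq2), against 4.49% of all genes of that length. From 2000 to 4000 nt the counts were 7 of 12 against 18.5%, from 4000 to 6000 nt 19 of 21 against 34.1%, from 6000 to 8000 nt 13 of 13 against 44.7%, and above 8000 nt 9 of 10 against 47.8%. The median log2 fold changes of the same 5 bins were -0.05, 0.33, 0.44, 0.45 and 0.47 for the 59 genes and -0.19, 0.04, 0.18, 0.25 and 0.29 for all genes. With the length trend removed, the 59 genes had 0, 6, 16, 7 and 6 called higher in the 5 bins, against 8.88%, 16.8%, 21.2%, 20.7% and 23.1% of all genes. Across the 59 genes, log2 fold change and log10 length had a Pearson r of 0.56 and a Spearman rho of 0.43. With the length trend removed they had 0.05 and -0.04. These correlations, and those below, describe 59 genes measured in the same 6 libraries.

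**Figure D3:**
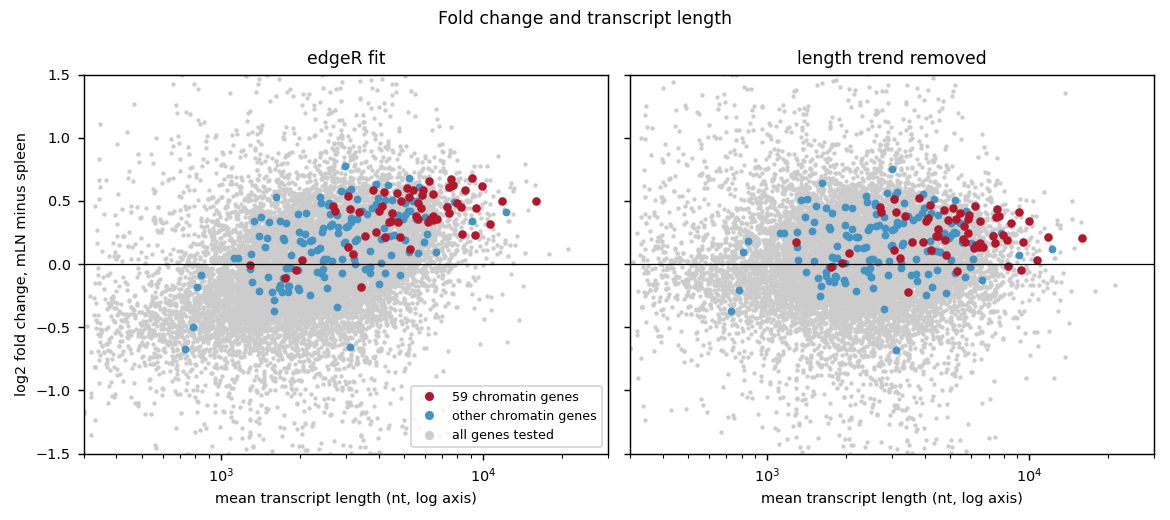
Log2 fold change, mLN minus spleen, against mean transcript length (log axis) for the 59 chromatin genes (red), the other chromatin genes (blue) and all 12486 genes tested (grey), in the edgeR fit (left panel) and with the length trend removed (right panel). The axes leave out 278 genes in each panel. The grey cloud slopes upward on the left and lies level on the right, where most red points remain above 0.

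Base composition moved with the difference as well. The log2 fold change had an r of 0.47 and a rho of 0.54 with the GC content of the annotated exons over the 59 genes, and after removal of the length trend 0.60 and 0.61. Splitting the set at its median GC content of 49.7%, 23 of the 30 GC-poor genes were higher in mLN with a median log2 fold change of 0.35, and 25 of the 29 GC-rich ones with a median of 0.50. The counts without the length trend were 13 of 30 and 22 of 29, with both length and GC trends removed 26 of 30 and 19 of 29 (14.8% of all genes higher and 8.71% lower in that fit), and with the GC trend alone removed 27 of 30 and 26 of 29 (21.1% of all genes higher and 11.8% lower). Replicate 3 stood apart in both tissues along this axis. Among GC-rich genes, mLN replicate 3 was the highest mLN library in 17 of 29 and spleen replicate 3 the highest spleen library in 25 of 29. Among GC-poor genes, mLN replicate 3 was the lowest in 26 of 30 and spleen replicate 3 in 18 of 30. The part of base composition in the results was not tested beyond these fits. Abundance showed little relation, with an r of -0.13 and a rho of -0.11 between log2 fold change and log2 TPM in spleen.

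Levels per transcript length, in TPM (a unit in which each gene is divided by its transcript length and each library has the same sum), let the genes be compared with each other. Chd3 was the most abundant, at 901 ± 32.1 TPM in mLN cells and 521 ± 37.1 TPM in spleen cells (SD, n = 3 each, here and below), followed by Chd4 at 229 ± 3.73 TPM in mLN cells and 132 ± 4.07 TPM in spleen cells and Kmt2d at 161 ± 14.8 TPM in mLN cells and 96.4 ± 14.4 TPM in spleen cells. In mLN neither Chd3 and Chd4 nor Chd4 and Kmt2d overlapped, whereas Kmt2d, Hdac1, Nsd3 and Arid1a, which came next, each overlapped a neighbour in the order. The lowest was Tet1, at 6.25 ± 0.462 TPM in mLN cells and 6.80 ± 0.563 TPM in spleen cells, below Kat6b at 12.7 ± 0.316 TPM in mLN cells and 9.34 ± 1.33 TPM in spleen cells and Tet2 at 17.7 ± 3.43 TPM in mLN cells and 11.5 ± 1.61 TPM in spleen cells, and these 3 genes did not overlap in mLN. Among the H3K27 methyltransferases, Ezh1 stood at 47.1 ± 0.814 TPM in mLN cells and 46.3 ± 4.36 TPM in spleen cells and Ezh2 at 26.9 ± 3.69 TPM in mLN cells and 23.8 ± 3.05 TPM in spleen cells. The median TPM of the set was 60.8 in mLN and 40.9 in spleen, and that of all genes tested 18.7 in mLN and 15.7 in spleen. On the scale of log2(TPM + 1), which shifts the median of all genes by 0.21 in favour of mLN, limma called 47 of the 59 genes higher and 0 lower, against 22.2% of all genes higher and 3.08% lower. After centring each library on its median, limma called 26 higher and 0 lower, against 6.45% and 7.69% of all genes.

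In 17 of 21 pairs of paralogs or family members in the set both genes were higher in mLN, in 3 pairs 1 was, in 1 pair (Ezh1 and Ezh2) neither was, and in no pair were the genes called in opposite directions. Within a library the ratio of paralogs does not depend on scaling. The trends with transcript length and base composition were not removed from these ratios. The largest difference of such a ratio was that of Tet1 over Tet3, whose log2 TPM ratio was -3.15, -3.06 and -3.34 in mLN, against -1.98, -2.25 and -2.30 in spleen. By counts this difference, mLN minus spleen, was -0.38 in place of -1.01. The isoform-weighted length of Tet1 in the tables was 11154, 9972 and 8866 nt in mLN, against 6175, 7269 and 6369 nt in spleen, and TPM is divided by that length. Kdm2a over Kdm2b differed by -0.56 in TPM, without overlap, and by -0.19 in counts, with overlap. Kat6a over Kat6b differed by 0.48 in TPM and 0.30 in counts, and Kdm6a over Kdm6b by -0.48 and -0.53, all without overlap. In all, 6 pairs had ratios that did not overlap by TPM and 8 by counts. An exact two-sided permutation test over 3 against 3 libraries gave each of the 6 the smallest p it allows, 0.1, and 0.35 after adjustment over the 21 pairs, so no pair could pass the threshold.

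**Figure D4:**
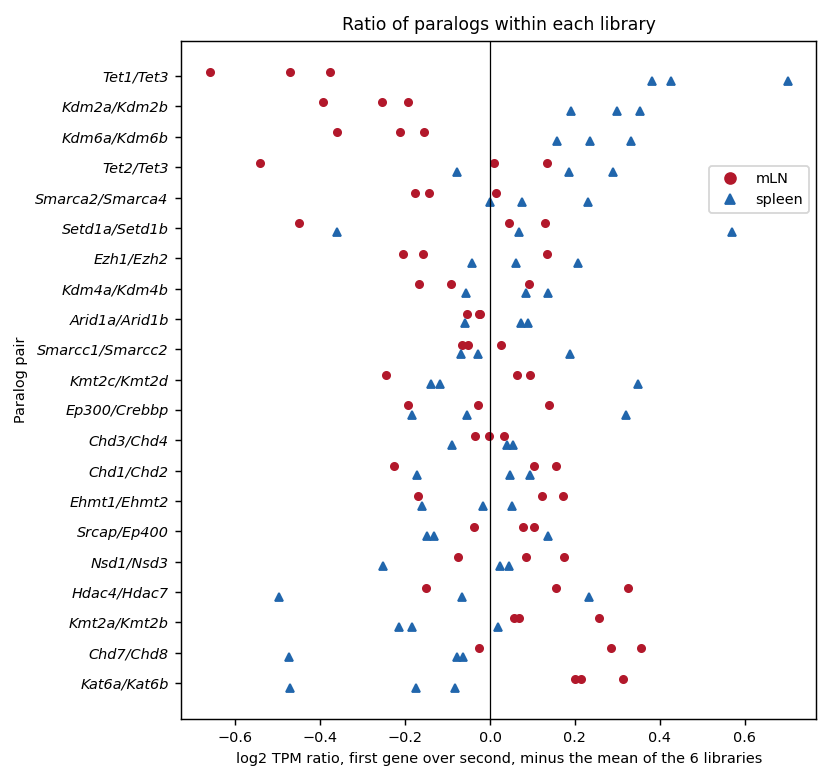
Log2 TPM ratio of each of 21 paralog pairs (first gene over second) in every library, minus the pair's mean over the 6 libraries, with mLN libraries as red circles and spleen libraries as blue triangles. Circles and triangles separate in 6 pairs, most widely for Tet1/Tet3 and least for Chd7/Chd8 and Kmt2a/Kmt2b.

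The isoform-weighted transcript length itself gave no call among the 59 genes by limma (smallest adjusted p 0.450), and 5 genes, Kdm4a, Tet1, Dot1l, Kdm2b and Kmt2b, had an unadjusted p under 0.05. Over all genes whose length varied, 3 of 10052 (0.0298%) were called and 5.95% had an unadjusted p under 0.05. Kdm4a, with the smallest p, averaged 4296 ± 49.3 nt in mLN and 3914 ± 67.5 nt in spleen, and Tet1 9997 ± 1145 nt in mLN and 6604 ± 584 nt in spleen (SD, n = 3 each).

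Some counts could be shared with an overlapping gene. The estimated counts of 45 of the 59 genes were whole numbers in all libraries, within 0.005, and those of 14 were not, as arises when RSEM divides reads between genes. Besides Chd2 and Srcap, Setd1a overlaps a gene on the same strand, Gm49388, and the 2 added together gave a log2 fold change of 0.54. Kdm2b overlaps Rnf34 on the opposite strand over 627 exonic bases, and Rnf34 was lower in mLN (log2 fold change -0.33, adjusted p = 0.0264). Kmt2e overlaps Srpk2 over 972 bases and Ash1l overlaps Dap3 over 352 bases, also on opposite strands. The kit marks strand, per the labels' protocols, but whether the counting used it is not given in the sources used here.

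Of 142 tested genes for other subunits and relatives of the same complexes, 53 were higher in mLN and 7 lower, against 16.1% and 13.5% of all genes, with a median log2 fold change of 0.19. That list, too, was made with earlier results of these data known. Long scaffold and coactivator genes were among the higher ones. Hcfc1, a cofactor shared by H3K4 methyltransferase complexes, had 288, 301 and 288 CPM in mLN cells, against 182, 184 and 204 CPM in spleen cells. Ncoa3, a nuclear receptor coactivator, had 326, 329 and 334 CPM in mLN cells, against 198, 213 and 207 CPM in spleen cells. Trrap, the large scaffold of acetyltransferase complexes, had 309, 333 and 313 CPM in mLN cells, against 207, 199 and 217 CPM in spleen cells. The groups of these 3 genes did not overlap, with log2 fold changes of 0.62 (adjusted p = 3.81e-07), 0.68 (adjusted p = 5.02e-08) and 0.61 (adjusted p = 2.76e-07), and of 0.38, 0.51 and 0.42 without the length trend, all still called. Daxx, a chaperone of histone H3.3, was 1.45-fold higher, and with a length of 1624 nt it had 0.64 (adjusted p = 9.73e-06) without the length trend. The 7 lower genes were Dpy30, Suv39h1, Rbbp7, Hat1, Smarce1, Morf4l1 and Cbx1, with lengths of 728 to 2781 nt. Dpy30, a small core subunit of the H3K4 methyltransferase complexes, had 19.1, 14.7 and 16.2 CPM in mLN cells, against 26.5, 27.7 and 25.7 CPM in spleen cells. It thus lay on the other side of 0 (log2 fold change -0.67, adjusted p = 8.09e-04) from the 7 genes of the H3K4 methyltransferase class. Without the length trend Dpy30 was at -0.37 (adjusted p = 0.0547), and the list had 47 higher and 1 lower, Suv39h1, an H3K9 methyltransferase, at -0.36 (adjusted p = 0.0238). Rbbp7, Morf4l1 and Cbx1 lay on the other side of 0 on the log2(TPM + 1) scale, at 0.02, 0.06 and 0.11.

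The libraries matched their label as CD4+ T cells. The 6 CD4 T cell markers summed to 3379 to 3425 CPM in mLN and 3559 to 3648 CPM in spleen. Cd4 RNA was at 882 to 904 CPM in mLN and 877 to 961 CPM in spleen, and the summed CD8 markers at 12.5 to 20.4 CPM in mLN and 16.0 to 17.8 CPM in spleen. Of the naive T cell markers, Lef1 was at 489 to 509.5 CPM in mLN and 359 to 385 CPM in spleen and Tcf7 at 1273 to 1351 CPM in mLN and 938 to 1022 CPM in spleen, both called higher in mLN, and Ccr7 was at 437 to 475 CPM in mLN and 555 to 592 CPM in spleen and Il7r at 373 to 431 CPM in mLN and 654 to 743 CPM in spleen, both called lower. B cell, myeloid, dendritic and NK cell markers were low in all libraries and their sums lower in mLN. The 5 B cell markers summed to 7.87 to 11.8 CPM in mLN and 24.7 to 26.0 CPM in spleen, with 4 of 5 lower. The 6 macrophage and monocyte markers summed to 3.07 to 4.01 CPM in mLN and 29.9 to 32.6 CPM in spleen, with 3 of the 4 tested lower. The 5 neutrophil markers summed to 0.150 to 0.644 CPM in mLN and 13.3 to 22.5 CPM in spleen, with Ly6g and Elane at 0 in all libraries, and the 5 dendritic and NK cell markers to 0 to 0.495 CPM in mLN and 2.24 to 4.88 CPM in spleen. The 5 erythroid markers summed to 0.149 to 0.675 CPM in mLN and 0 to 0.373 CPM in spleen. The 4 stroma and endothelium markers summed to 203 to 218 CPM in mLN and 236 to 247 CPM in spleen, nearly all of it Pecam1, which naive T cells also express and which was called lower in mLN. The 4 markers of activated or regulatory T cells summed to 27.5 to 32.1 CPM in mLN and 35.6 to 42.8 CPM in spleen. The part of these cells in the results was not tested, and in bulk RNA fewer cells of a type and less RNA per cell cannot be told apart. Mitochondrial genes took 2.31 ± 0.164% of counts in mLN and 3.96 ± 0.228% in spleen (SD, n = 3 each), and the part of this difference in the results was not tested. Over all genes tested, 2010 were higher in mLN and 1689 lower, and on the log2(TPM + 1) scale 2772 were higher and 385 lower.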

How the data were processed

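Reads were aligned with STAR to mm10 and quantified with RSEM, per the submitters' processing notes, without versions; the sources used here do not state the annotation release or the strand setting. The authors made the deposited expected count, an estimated count that shares out reads mapping to several genes, with RSEM, per the file headers. The authors' deposited TPM and isoform-weighted transcript length in nt come from the same RSEM tables, per the file headers. RNA was extracted with RNAiso PLUS and made into libraries with the NEBNext Ultra II Directional kit, per the labels' protocols. The 59 genes and all gene lists were chosen with earlier results of these data known.

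Expected counts were rounded and fitted over all genes with edgeR 4.0.16 (R 4.3.3): TMM scaling, its default filter on low counts (12486 genes kept, all 59 genes among them), tissue as the only term, a robust quasi-likelihood F test, two-sided, and Benjamini-Hochberg adjustment over all genes tested. The standard error is the log2 fold change divided by the root of F. A second fit added per-library offsets from a loess curve (span 0.3) on log10 length. TPM was tested on log2(TPM + 1) with limma 3.58.1. Alternatives used DESeq2 1.42.0, other scalings and filters, and leaving out each library. The scripts were tested on simulated data. Coordinates, exon overlaps and GC content come from GENCODE M21 (GRCm38, the assembly of mm10), and 55141 of the gene IDs had a symbol there.

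In each class the text names the 2 genes with the smallest p and every gene whose call changed with the length trend removed; other genes named were chosen after their values were seen. Replicates of 1 tissue differed by more than counting noise (chi-square per degree of freedom 5.58 to 11.3), so none was merged. The FPKM column was not used.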

Additional observations from a re-analysis of the deposited data

How the results depend on the processing

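Of the 59 genes, 21 were called higher in mLN in all 27 settings: Kmt2a, Kdm2a, Kdm2b, Kdm3b, Kdm6b, Ep300, Crebbp, Kat6a, Hdac7, Arid1a, Arid1b, Smarca4, Smarcc2, Chd3, Chd4, Chd7, Srcap, Ep400, Bptf, Tet3 and Dnmt1. Leaving out 1 library gave 46 to 50 of the 59 higher, and 29 to 37 with the length trend removed, 29 being without mLN replicate 1 or spleen replicate 2. Median-centred log2(TPM + 1) gave 26. A count of 1 lower (Ezh1) in place of 0 came with upper-quartile scaling, the replicate block, the length trend removed with or without the block or the GC trend, and without spleen replicate 3. With the length trend removed, leaving out 1 library gave 0 or 1 lower, 1 being without spleen replicate 3. GC removal alone gave 53 higher and 0 lower, and length with GC 45 and 1.

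Replicate numbers are shared between tissues, but the deviations of same-numbered libraries were only weakly correlated (r = 0.0223, 0.00230 and 0.0652), none above 0.1, and not every library correlated best with its own number, although both libraries numbered 3 leaned the same way by GC content. The labels tie no number to a shared animal or batch, so the numbers were not taken as pairs. The replicate block gave 51 of the 59 genes higher and 1 lower, and 42 and 1 with the length trend removed; over all genes it gave 2566 and 2140.

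For the other chromatin genes, median-centred TPM gave 27 higher. Their 7 lower calls became 1 on log2(TPM + 1), 2 after centring, 1 with the length trend removed, 4 with GC, 1 with both, 10 with the block, 3 to 8 leaving out 1 library and 0 to 3 doing so with length removed, where the higher calls were at least 35. Over all genes, centred TPM gave 805 higher and 960 lower, log2(TPM + 1) 385 lower, length with GC 1088 lower, and leaving out 1 library with length removed 1328 to 1939 higher and 734, 738, 847, 925, 963 and 1284 lower. Pairs of paralogs whose ratios did not overlap numbered 6 to 10 leaving out 1 library, 10 being without mLN replicate 3. Setd1b turned to -0.019 with length and GC removed, Eed to 0.31 (adjusted p = 0.00395), and Ash1l to -0.023 without spleen replicate 3 and the length trend. Kdm7a was at -0.044 with length removed, -0.047 with the block as well, and, leaving out mLN replicate 1 or 2 or spleen replicate 1, 2 or 3, at -0.049, -0.085, -0.029, -0.028 and -0.058. Rbbp7, Morf4l1 and Cbx1 were at 0.020, 0.062 and 0.11 on log2(TPM + 1). Ezh1, lower in mLN by CPM, averaged 47.1 TPM in mLN and 46.3 TPM in spleen. The causes were not tested.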
